A study of Mus musculus with 18 samples.

Results

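Livers of untreated mice on a high-fat diet (HFD) were compared with livers of untreated mice on a low-fat diet (LFD). The 8 arrays, 4 per diet, were chosen from the 18 of the series by their labels alone, and every gene with a usable probe entered the comparison. All 8 mice were C57BL/6 males, started on their diet at 6 weeks of age, and received no drug. Treated mice of the series began methotrexate after 10 weeks on their diet, received 5 rounds, and were harvested 1 week after the last. The same 10 weeks on diet before treatment are recorded for the untreated groups. Whether the untreated mice were harvested at the same age, and at which hour, is not given in the sources used here. The LFD supplied 10% and the HFD 60% of energy as fat. The other 10 livers, from mice given methotrexate at 50 mg/kg on either diet, entered as further groups in the model that estimated the spread. They also entered the filter on probes, the choice of each gene's brightest probe and the normalizations run across arrays. Each array measured whole-liver RNA of 1 mouse, so that fewer cells of a type and less RNA per cell cannot be told apart.

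As background, a liver supplied with fat stores it as triglyceride in lipid droplets. Droplets are coated by perilipins and CIDE proteins, many of which are induced by the nuclear receptor PPARγ. A diet rich in carbohydrate instead drives synthesis of fatty acids from glucose through the transcription factors SREBP1c and ChREBP. The liver also secretes most plasma proteins, runs the urea cycle and follows a daily clock, and many of its genes differ between males and females through growth hormone.

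Values are given as the log2 of the processed spot intensity minus the 75th percentile of the same array, so that 0 is the intensity of a fairly bright spot and 1 unit is a 2-fold step. Changes are HFD minus LFD on this scale. The 75th percentile lay between 1428 and 2180 intensity units on the 8 arrays, and 84.2 to 88.6% of spots on LFD arrays and 87.1 to 89.8% on HFD arrays were well above background. Alb, encoding albumin, the defining product of hepatocytes, lay between 8.17 and 8.39 in LFD and between 7.86 and 8.15 in HFD (adjusted p = 0.12). All 4 LFD arrays lay on 1 slide, HFD replicates 1 and 2 on another, and HFD replicates 3 and 4 on another again, which they shared with 2 arrays of methotrexate-treated HFD mice. Diet and slide cannot be told apart.

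Of 19597 genes tested with limma, 3522 were higher in HFD (18% of those tested) and 2033 lower (10.4%) at an adjusted p below 0.05, together 28.3%. With a change of at least 2-fold as well, 454 were higher (2.32%) and 106 lower (0.541%), together 2.86%. The groups did not overlap for 4694 genes higher in HFD (24%) and 3156 lower (16.1%). Counts of list members given below are to be read beside the shares of 18% higher and 10.4% lower. The direction of the calls over all genes followed the signal of the gene. Across 5 bins of genes ordered from dimmest to brightest, the median change was 0.42, 0.27, 0.08, -0.06 and -0.17. In the dimmest bin 997 genes were higher and 59 lower, and in the brightest 157 were higher and 621 lower. Of 822 olfactory receptor genes, a family that serves smell and was chosen after its values were seen, 300 passed as higher and 1 as lower, and under the normalization described next 144 and 8.

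**Figure D1:**
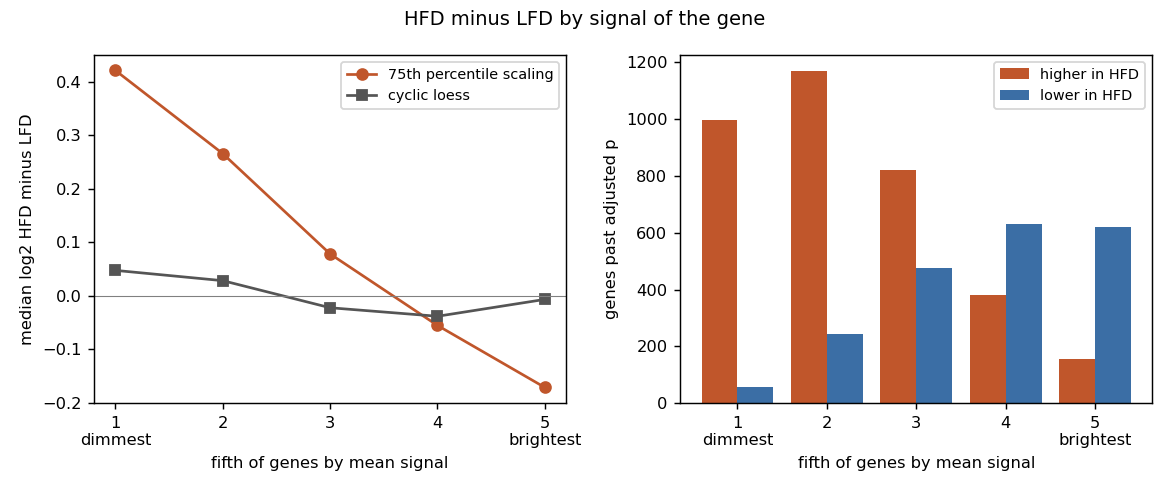
Left, median log2 change (HFD minus LFD, n = 4 per group) of genes in 5 bins by mean signal on the 8 arrays, with 75th percentile scaling (circles) and cyclic loess (squares). Right, number of genes past the adjusted p in each bin with 75th percentile scaling: higher calls outnumber lower calls 997 to 59 in the dimmest bin, and lower calls outnumber higher calls 621 to 157 in the brightest.

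Cyclic loess, a normalization that takes out differences between arrays that depend on signal, was therefore applied as a second reading, chosen after this pattern was seen. It called 1884 genes higher (9.61%) and 2091 lower, and 3195 of these 3975 had also been called, in the same direction, with 75th percentile scaling. Quantile normalization gave 1713 higher and 2046 lower, and scaling each array to the median of always-detected probes 2482 and 2967. With the 2-fold criterion loess called 202 higher and 172 lower, quantile normalization 202 and 150, and median scaling 319 and 142. Of the 560 genes past both criteria, 403 passed in the same direction under loess. The part of signal-dependent differences between arrays in the calls was not tested. A fit that treated slide as random, in which arrays sharing a slide correlated at 0.262, called 380 genes (1.94%), 101 of them among those 560.

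The 2 pairs of HFD arrays did not stand equally far from LFD. The median absolute change was 0.24 for HFD replicates 1 and 2 and 0.41 for HFD replicates 3 and 4. At the same threshold 7 genes separated the first pair from LFD, and 6171 separated the second pair. Between the pairs themselves limma called 0 genes, with 1378 of 19597 at an unadjusted p below 0.05. Leaving out HFD replicate 3 reduced the 5555 calls to 2244, HFD replicate 4 to 2556, LFD replicate 2 to 3317 and LFD replicate 4 to 3593. Of the 129 named genes that passed, which were chosen over all 4 HFD arrays, 99 differed more from LFD in HFD replicates 3 and 4.

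**Figure D2:**
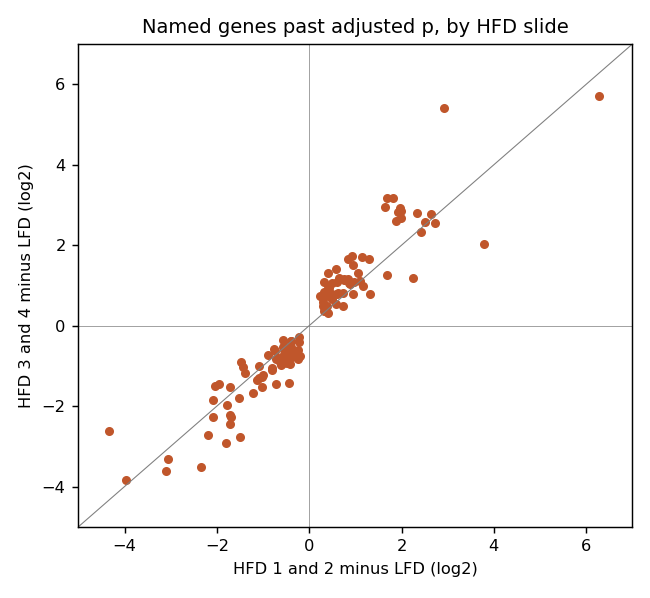
Each point is 1 of the 129 named genes past the adjusted p, with its log2 change from LFD in HFD replicates 1 and 2 (x axis) and in HFD replicates 3 and 4 (y axis), 2 HFD arrays against 4 LFD arrays each. The line marks equal change, and 99 genes lie farther from 0 on the y axis. The genes were chosen over all 4 HFD arrays, so that a shared sign follows largely from the choice.

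Cfd and Cidea, both best known from fat cells, had the largest rises among the genes named, and Fabp5, Tff3 and Pnpla3 the largest falls among those detected in both groups. Cfd encodes complement factor D, also called adipsin, an adipokine of fat tissue. Its values were -4.90, -3.66, -2.28 and -5.11 in LFD replicates 1 to 4 and 2.03, 2.55, 1.55 and 1.90 in HFD replicates 1 to 4. Every HFD liver lay above every LFD liver, by a change of 5.99 ± 0.92 (SE, n = 4 per group), adjusted p = 0.0025, or 63.8-fold. The LFD livers were spread from -5.11 to -2.28, with replicate 3 the highest. Cidea encodes a droplet protein that promotes fusion of droplets and is typical of brown fat. Its values were -3.38, -3.02, -1.95 and -3.47 in LFD replicates 1 to 4 and -1.19, 1.13, 2.74 and 2.17 in HFD replicates 1 to 4, a change of 4.17 ± 0.70 (SE, n = 4 per group), adjusted p = 0.0029. The groups did not overlap, and HFD replicate 1 lay closest to LFD. Lep, the gene of the adipokine leptin, changed by 2.30 ± 0.36 (SE, n = 4 per group), adjusted p = 0.0025. Its level was -3.13 to -2.56 in LFD and -1.57 to 0.24 in HFD. Mogat1, which makes diacylglycerol from monoacylglycerol, changed by 2.33 ± 0.47 (SE, n = 4 per group), adjusted p = 0.0047, with no overlap between the groups. Cfd, Cidea and Lep were among the 15 of 129 named genes that still passed with slide as random, each at an adjusted p of 0.046.

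**Figure D3:**
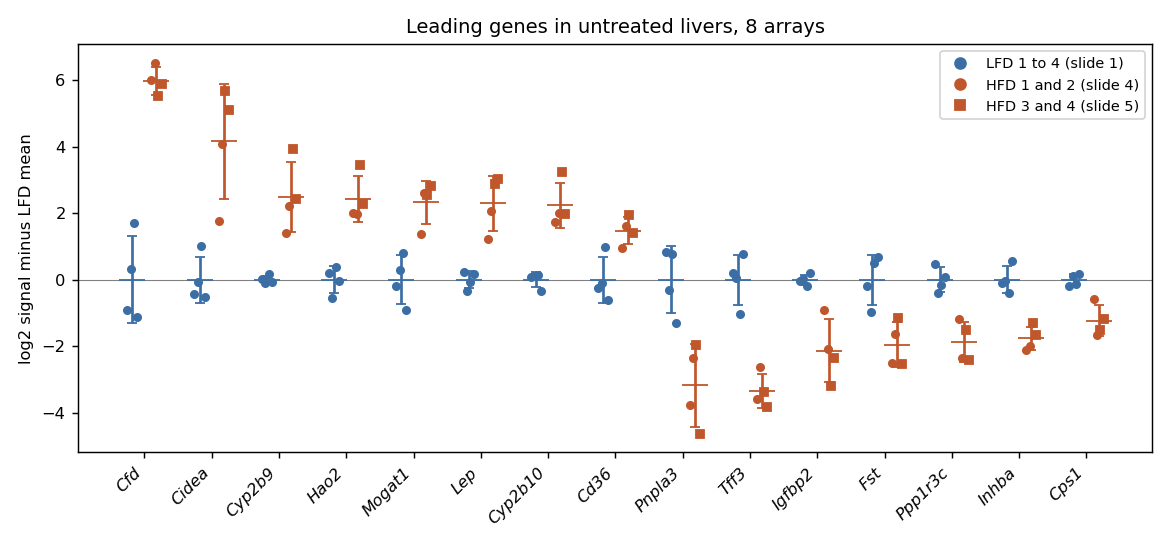
Log2 signal minus the LFD mean for 15 named genes on the 8 arrays. Points are single livers, bars the mean and SD of 4, and HFD replicates 3 and 4, which share a slide, are squares. Cfd stands 5.99 above the LFD mean, and Pnpla3 and Tff3 lie more than 3 below it; Cd36 is the gene shown in which an LFD liver reaches the HFD range.

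Other large rises came from varied families. Slc22a29, an organic anion transporter gene, changed by 2.71 (adjusted p = 0.005). Krt23, a keratin, changed by 2.63 (adjusted p = 0.017), Adgrv1, an adhesion receptor, by 2.45 (adjusted p = 0.0034), and Sema5b, a semaphorin, by 2.38 (adjusted p = 0.0027). Fbxw13 and Klrc3 changed by 2.42 and 2.37, though Klrc3 was well above background in only 2 of 4 LFD livers. Some of the large rises came from genes that were below background in every LFD liver, so that only a bound is given. Against the lowest detectable signal, Olfr169 was at least 3.49-fold higher, 4933433G08Rik at least 2.40-fold and Vat1l at least 1.43-fold.

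The genes with the largest falls included lipases, secreted factors and receptors. Pnpla3, the gene of a triglyceride hydrolase of lipid droplets that responds to carbohydrate feeding, had values of -1.19, -2.35, -1.23 and -3.31 in LFD replicates 1 to 4 and -5.81, -4.37, -3.98 and -6.67 in HFD replicates 1 to 4. Its change was -3.18 ± 0.93 (SE, n = 4 per group), adjusted p = 0.02, and the groups did not overlap. Pnpla5, of the same family, was not well above background in any HFD liver and was at least 4.97-fold lower, a direction that turned under the normexp model of spot background fitted to all spots. Tff3, a trefoil peptide of mucous epithelia, had values of -0.04, -0.20, -1.27 and 0.53 in LFD replicates 1 to 4 and -3.83, -2.88, -3.64 and -4.08 in HFD replicates 1 to 4, a change of -3.36 ± 0.83 (SE, n = 4 per group), adjusted p = 0.01. Here too the groups were apart. Pdzk1ip1, Adgrf1 and Adamts7, the last a metalloproteinase, changed by -2.46, -2.93 and -2.36. Gldn, not well above background in HFD, was at least 3.43-fold lower, and it too turned under that model. Avpr1a, the liver receptor for vasopressin, changed by -2.08 and Fam222a by -1.98. With slide as random Adgrf1, Adamts7, Avpr1a and Fam222a passed, at adjusted p between 0.04 and 0.048.

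Genes of fatty acid synthesis lay lower as a list, although few passed. Of 22 members 4 fell and 0 rose at the adjusted p, and their median change was -0.86, against 0.08 over all genes. In the fit of the 8 untreated arrays alone, 14 of the 22 passed as lower. Of all 19597 genes that fit called 3118 lower, and 41.7% in either direction. Besides Pnpla3, the genes that fell were Acaca, Acly and Mlxipl. Acaca encodes acetyl-CoA carboxylase 1, which makes malonyl-CoA. Its values were 3.29, 3.29, 3.55 and 3.42 in LFD replicates 1 to 4 and 1.76, 2.23, 2.50 and 1.91 in HFD replicates 1 to 4, a change of -1.29 ± 0.37 (SE, n = 4 per group), adjusted p = 0.019. Acly, which supplies cytosolic acetyl-CoA, changed by -0.95 ± 0.28 (SE, n = 4 per group), adjusted p = 0.022. Mlxipl, the gene of ChREBP, changed by -0.77 ± 0.17 (SE, n = 4 per group), adjusted p = 0.0069. The groups did not overlap for any of the 3. Under loess Acly no longer passed (change -0.71, adjusted p = 0.071), and with slide as random 0 of the list passed by limma.

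Genes of lipid droplets and PPARγ moved the other way. Of 22 tested, 8 rose and 1 fell, 6 of the rises by at least 2-fold, with a median of 0.55. Cd36, the gene of a fatty acid transporter, had values of -1.27, -1.11, -0.03 and -1.63 in LFD replicates 1 to 4 and -0.06, 0.61, 0.92 and 0.38 in HFD replicates 1 to 4. LFD replicate 3 overlapped the HFD range, and the change was 1.48 ± 0.32 (SE, n = 4 per group), adjusted p = 0.0063. Cidec, whose protein enlarges droplets, changed by 1.32 ± 0.22 (SE, n = 4 per group), adjusted p = 0.0027, and the droplet coat gene Plin4 by 1.23 ± 0.38 (SE, n = 4 per group), adjusted p = 0.026. Fitm1, which promotes lipid accumulation within cells, Plin1 and Pparg itself also rose, by 1.11, 0.64 and 0.72. Abhd5, a coactivator of the triglyceride lipase ATGL, fell by 0.52. Under loess 6 rose and 1 fell, and with slide as a random block 2 passed, Cidea and Cidec.

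Uptake and assembly of triglyceride showed 1 rise and 3 falls among 21 genes. Lpin2, a phosphatidate phosphatase, changed by 0.87, and Mttp, which loads lipid onto apolipoprotein B, by -0.55. Fatty acid oxidation had 3 rises and 0 falls among 36 genes, each under 2-fold: Cpt1a, the entry step of mitochondrial oxidation, 0.60, Cpt1b 0.44 and Hadh 0.36. The rises stand beside 18% of all genes, and the list median was 0.10. When arrays were scaled to the median of always-detected probes, 0 of the 36 passed. Under loess 4 rose and under quantile normalization 5, with a median of 0.24 in each and 0 falls. The fit of the 8 untreated arrays called 10 higher and 0 lower. In cholesterol synthesis and uptake limma called 0 of 24 genes, with 1 at an unadjusted p below 0.05, and the methods' t-test called 1 higher and 1 lower. Of the 15 uncoupling and thermogenic genes 5 rose and 2 fell. Ucp2 and Ucp3, mitochondrial carriers, changed by 0.96 and 0.95, and Dio1, which activates thyroid hormone, by 1.10.

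Genes of glycogen and glucose handling fell more often than they rose, 6 against 2 of 24, with a median of -0.26. Ppp1r3c targets protein phosphatase 1 to glycogen. Its values were 3.16, 2.27, 2.51 and 2.76 in LFD replicates 1 to 4 and 1.48, 0.31, 1.14 and 0.25 in HFD replicates 1 to 4, and every HFD liver lay below every LFD liver, a change of -1.88 ± 0.37 (SE, n = 4 per group), adjusted p = 0.0045. Ppargc1a, the coactivator PGC-1α of gluconeogenesis and mitochondria, changed by -1.20 ± 0.25 (SE, n = 4 per group), adjusted p = 0.0053, again without overlap. Ppp1r3b, Irs1, an insulin receptor substrate, and Pygl, liver glycogen phosphorylase, changed by -0.75, -0.73 and -0.67. Irs2 and Pfkl were the members that rose. Under loess 3 fell and 1 rose.

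Igfbp2, Fst, Inhba and Adipor1 fell among 25 hepatokine and hormone receptor genes, and 0 rose. Igfbp2, a binding protein for insulin-like growth factors, had values of 4.47, 4.52, 4.33 and 4.70 in LFD replicates 1 to 4 and 3.59, 2.43, 1.31 and 2.16 in HFD replicates 1 to 4. The change was -2.14 ± 0.44 (SE, n = 4 per group), adjusted p = 0.0054, with HFD replicate 1 nearest to LFD and replicate 3 farthest. Fst, the gene of follistatin, which binds activin, and Inhba, the gene of an activin subunit, changed by -1.96 ± 0.61 (SE, n = 4 per group), adjusted p = 0.027 and -1.77 ± 0.37 (SE, n = 4 per group), adjusted p = 0.0053, with no overlap. The list median was -0.08, and 0.08 under loess.

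Of 17 female-biased genes 4 rose and 0 fell, and of 20 male-biased genes 0 rose and 4 fell. Over all genes 18% rose and 10.4% fell. The list medians were 0.53 and -0.43. The first fell to 0.11 under normexp without spots far below their local background. Cyp2b9, a female-predominant cytochrome P450, had values of -4.50, -4.60, -4.33 and -4.58 in LFD replicates 1 to 4 and -3.11, -2.28, -0.58 and -2.09 in HFD replicates 1 to 4. No HFD liver reached down to the LFD range, and the change was 2.49 ± 0.66 (SE, n = 4 per group), adjusted p = 0.014. Hao2, a peroxisomal hydroxyacid oxidase, changed by 2.43 (adjusted p = 0.014), though only 1 of 4 LFD livers was well above background. Cyp2b13, of the same family as Cyp2b9, changed by 1.00. On the male side Cyp4a12b, a fatty acid hydroxylase, changed by -1.24 ± 0.33 (SE, n = 4 per group), adjusted p = 0.015, and Gstp1, a glutathione transferase, by -1.27 ± 0.34 (SE, n = 4 per group), adjusted p = 0.015. C8b and Cyp4a12a also fell, but the latter is nearly identical to Cyp4a12b, so the pair may share signal. All 4 female-biased genes and 3 of the male-biased passed under loess. With slide as a random block 0 of either list passed.

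Drug metabolism was mixed, 1 rise and 2 falls of 22. Cyp2b10, the standard target of the receptor CAR, had values of -0.27, -0.22, -0.22 and -0.69 in LFD replicates 1 to 4 and 1.39, 1.66, 2.90 and 1.61 in HFD replicates 1 to 4, a change of 2.24 ± 0.73 (SE, n = 4 per group), adjusted p = 0.032 without overlap. Cyp2c70, which makes muricholic acids, changed by -0.94. Of 25 NRF2 and glutathione genes 1 rose and 2 fell. Nqo1, a quinone reductase, rose by 0.56 (adjusted p = 0.025), and G6pdx, the NADPH-producing first step of the pentose phosphate route, changed by -1.05 ± 0.22 (SE, n = 4 per group), adjusted p = 0.0052.

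Complement and coagulation had 10 falls of 31 and a median of -0.33, with 4 falls and a median of -0.14 under loess. C1ra, a protease of the first complement component, changed by -1.08 ± 0.18 (SE, n = 4 per group), adjusted p = 0.0029 and by -0.85 under loess. Respiratory chain subunits had 13 falls of 38, none 2-fold, with a median of -0.22 but -0.02 under loess, where 2 fell and 1 rose. Of 29 acute phase genes 1 rose and 3 fell, beside 18% and 10.4% of all genes. Saa3, a serum amyloid A protein, rose by 1.03 (adjusted p = 0.041), and the fibrinogen genes Fga, Fgb and Fgg changed by -0.67, -0.46 and -0.53, and 0 of these 4 passed under loess. The medians of acute phase genes and hepatocyte markers turned from -0.03 and -0.19 to 0.16 and 0.17 under loess. Apolipoproteins had 6 falls and 1 rise of 22. Pltp, a phospholipid transfer protein of HDL, changed by -1.44 ± 0.38 (SE, n = 4 per group), adjusted p = 0.014 and by -1.38 under loess, and Apom by -0.78. Cps1, the entry enzyme of the urea cycle, was the member of that list of 30 that passed. Its values were 3.39, 3.70, 3.45 and 3.76 in LFD replicates 1 to 4 and 2.99, 1.91, 2.07 and 2.40 in HFD replicates 1 to 4, a change of -1.24 ± 0.25 (SE, n = 4 per group), adjusted p = 0.005 without overlap.

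**Figure D4:**
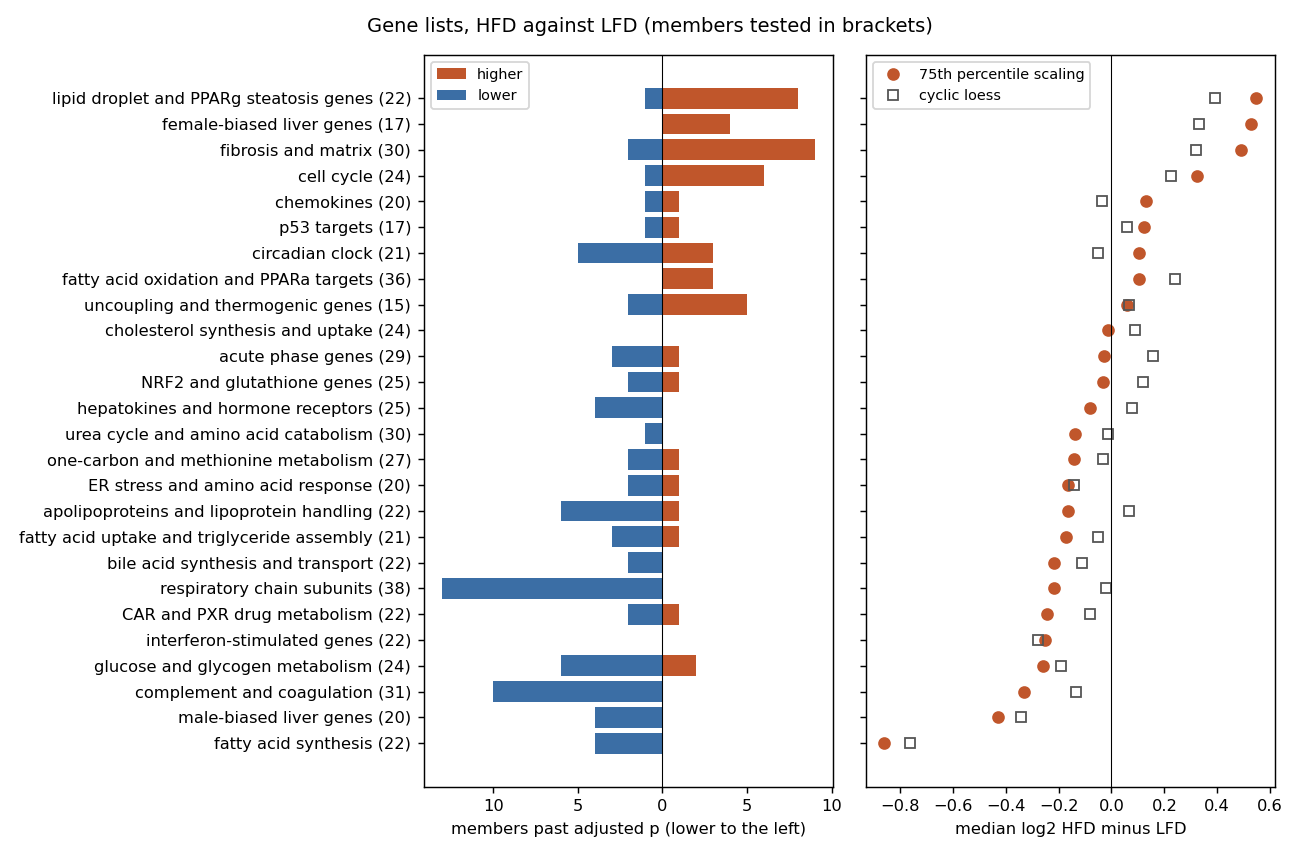
Left, number of members of each of 26 gene lists past the adjusted p, higher in HFD to the right and lower to the left (n = 4 per group). Right, the list's median log2 change with 75th percentile scaling (circles) and cyclic loess (open squares): lipid droplet genes stay above 0.3 and fatty acid synthesis below -0.7 under both, whereas respiratory chain subunits move from -0.22 to -0.02.

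Clock genes moved in opposite directions. Of 21 tested, 3 rose and 5 fell, with a median of 0.10 that turned to -0.05 under loess and -0.07 under quantile normalization. Arntl encodes BMAL1, the activator at the core of the clock, and its values were -0.10, -1.75, -0.44 and -0.01 in LFD replicates 1 to 4 and -2.19, -2.86, -1.68 and -2.35 in HFD replicates 1 to 4. LFD replicate 2 lay inside the HFD range, apart from its group, and the change was -1.69 ± 0.49 (SE, n = 4 per group), adjusted p = 0.02. Dbp, an output factor driven by BMAL1, ran the other way with values of -0.01, 2.23, 0.19 and -0.23 in LFD replicates 1 to 4 and 2.08, 2.38, 1.48 and 2.15 in HFD replicates 1 to 4. Again LFD replicate 2 was at the HFD level, and the change was 1.48 ± 0.53 (SE, n = 4 per group), adjusted p = 0.045. Cry1, a repressor of BMAL1, changed by -1.65 ± 0.33 (SE, n = 4 per group), adjusted p = 0.0046 without overlap. Nfil3, a repressor opposed to Dbp and Tef, changed by -1.12, Tef by 1.06, Clock by -0.61, Rora by -0.45 and Bhlhe41 by 0.59. Per1 and Per2 changed by -0.27 and 0.10 and did not pass. For Nfil3 and Tef, too, LFD replicate 2 lay inside the HFD range. Without that liver the change was 2.04 for Dbp, 1.49 for Tef and -2.09 for Arntl, and all 3 passed. The liver was picked by its values for these genes, so that larger changes without it follow from the choice. In the fit of the 8 untreated arrays Tef did not pass (adjusted p = 0.078). Cry1 passed with slide as random (adjusted p = 0.048).

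**Figure D5:**
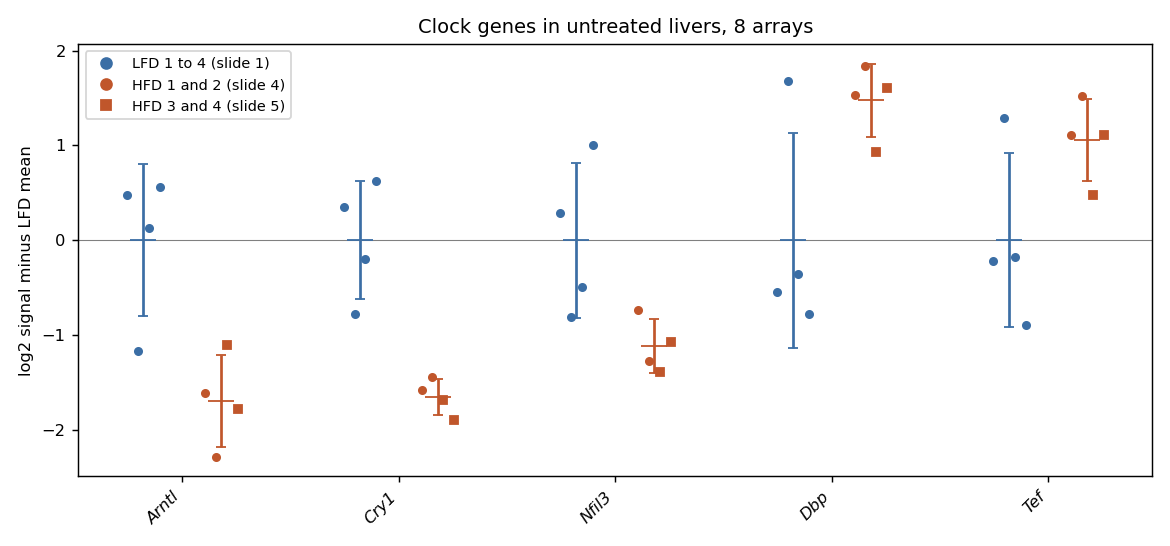
Log2 signal minus the LFD mean for 5 clock genes on the 8 arrays, with the mean and SD of 4 per diet. Arntl, Cry1 and Nfil3 lie lower in HFD and Dbp and Tef higher, and LFD replicate 2 sits with the HFD livers for Arntl, Dbp, Nfil3 and Tef.

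BMAL1 and CLOCK bind the E-box CACGTG, so the promoters of clock genes that passed are shown where they hold these letters. The window runs from 250 bases before to 50 after the annotated start in RefSeq (GRCm38.p6), 5′ to 3′ on the gene's strand, with CACGTG, which reads the same on both strands, in capitals. In the table as a whole 7.15% of 32851 windows hold it. The window of Cry1 is chr10:85185005-85185304 on the reverse strand, that of Tef, the first of 2 listed, is chr15:81802423-81802722 on the forward strand, and that of Bhlhe41 is chr6:145865371-145865670 on the reverse strand.
Cry1: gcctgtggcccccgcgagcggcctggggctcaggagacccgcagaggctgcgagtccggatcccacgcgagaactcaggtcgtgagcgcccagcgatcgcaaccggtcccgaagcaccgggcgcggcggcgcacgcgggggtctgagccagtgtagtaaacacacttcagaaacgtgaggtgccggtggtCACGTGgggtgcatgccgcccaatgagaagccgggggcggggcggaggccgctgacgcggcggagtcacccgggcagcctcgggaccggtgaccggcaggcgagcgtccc
Tef: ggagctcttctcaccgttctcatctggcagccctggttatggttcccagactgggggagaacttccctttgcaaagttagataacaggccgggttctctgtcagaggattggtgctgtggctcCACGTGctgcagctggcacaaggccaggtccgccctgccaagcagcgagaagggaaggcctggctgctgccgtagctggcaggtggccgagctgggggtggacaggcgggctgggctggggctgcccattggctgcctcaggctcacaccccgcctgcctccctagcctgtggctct
Bhlhe41: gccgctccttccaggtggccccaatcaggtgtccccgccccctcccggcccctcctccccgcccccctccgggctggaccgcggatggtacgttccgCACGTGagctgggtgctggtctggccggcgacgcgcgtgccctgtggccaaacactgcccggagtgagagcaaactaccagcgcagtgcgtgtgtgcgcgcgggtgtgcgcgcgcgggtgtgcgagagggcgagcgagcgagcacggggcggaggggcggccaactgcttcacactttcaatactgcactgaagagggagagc
Cry1 fell while Tef and Bhlhe41 rose, so genes with these letters did not share a direction. The windows of Arntl, Clock, Dbp, Nfil3 and Rora do not hold the letters. The DR1 motif, a form of the element bound by PPARs, was sought on both strands of the windows of lipid droplet genes and matched 0 of them, against 0.381% of all windows.

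Of 30 fibrosis and matrix genes 9 rose and 2 fell, with a median of 0.49, and under loess 3 rose and 2 fell. Lox, a collagen cross-linking enzyme, changed by 1.00, Mmp2 by 0.78 and Col1a2, a chain of type I collagen, by 0.86, and 0 of these 3 passed under loess. Mmp14, a membrane metalloproteinase, fell by 0.69, though it stood at 0.035 under normexp fitted to all spots, and Col18a1 fell by 0.71. Of 24 cell cycle genes 6 rose and 1 fell, and under loess 3 rose and 1 fell. Mcm5, a subunit of the replicative helicase, changed by 0.71 and by 0.65 under loess. Bub1b, well above background in 1 of 4 LFD livers, changed by 1.72, and Tk1, thymidine kinase, by -0.93. Interferon-stimulated genes gave 0 calls of 22 by limma, with 3 at an unadjusted p below 0.05, all lower, and 4 lower by the methods' t-test. Of 20 ER stress genes 1 rose and 2 fell, beside 18% and 10.4% of all genes, with a median of -0.16. Atf4, a transcription factor of this response, and Edem1 changed by -0.46 (adjusted p = 0.019) and -0.39 (adjusted p = 0.046). Of this list 0 passed as lower under loess, quantile normalization, the deposited background-subtracted signals or normexp without spots far below their local background. With scaling to the median of always-detected probes 2 fell. In the fit of the 8 untreated arrays 3 fell, as by the methods' t-test. Chac1, which degrades glutathione, changed by 1.08 ± 0.24 (SE, n = 4 per group), adjusted p = 0.0069.

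Of 10 hepatocyte markers 3 fell, Cps1, Hnf4a, a nuclear receptor that defines hepatocytes, by 0.55 and Fgb, and their summed level was 10.6 to 10.8 in LFD and 10.4 to 10.6 in HFD. Of 9 adipocyte markers 4 rose, Cfd, Lep, Cidec and Plin1, while the fat-cell gene Adipoq lay between -4.70 and -4.35 in LFD and between -4.55 and -4.41 in HFD and Fabp4 changed by 1.01 (adjusted p = 0.13). The summed adipocyte level was 5.91 to 6.08 in LFD and 6.21 to 6.26 in HFD, and most of it came from Car3, which livers also express. The part of fat cells in the rises of Cfd and Lep was not tested. Of 17 Kupffer cell and macrophage markers 1 fell, Timd4, a receptor of resident macrophages, with a change of -0.80 ± 0.27 (SE, n = 4 per group), adjusted p = 0.038. The summed levels overlapped, 5.80 to 6.29 in LFD and 5.42 to 6.13 in HFD. Among 12 markers of lipid-associated macrophages Fabp5, a fatty acid binding protein, changed by -3.90 (adjusted p = 0.0033), from 4.31 to 5.25 in the 3 LFD livers with a value to 0.46 to 1.64 in HFD. LFD replicate 1 had no value for it, as the spot was an outlier, and the fit used 3 LFD arrays. The summed level of this list was 3.83 in that liver, where Fabp5 is missing from the sum, 5.00 to 5.68 in the other 3 LFD livers and 3.29 to 3.90 in HFD, while the median change of its members was 0.52. Cd9, a tetraspanin, changed by -1.62 ± 0.36 (SE, n = 4 per group), adjusted p = 0.0066, whereas Cx3cr1 rose by 0.57.

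T, B and NK cell markers held 4 rises of 18, beside 18% of all genes, with a median change of 0.17. Without overlap 7 members lay higher in HFD and 0 lower, beside 24% and 16.1% of all genes. Summed levels are taken on the linear scale, so that they follow the brightest members. The sum of this list ran from 6.995 to 7.096 in LFD and was lower, between 6.61 and 6.96, in HFD replicates 2 to 4. HFD replicate 1, at 7.11, lay above LFD. Cd8a, the coreceptor of cytotoxic T cells, had values of -4.12, -4.80, -4.56 and -5.14 in LFD replicates 1 to 4 and -3.82, -3.21, -3.01 and -2.89 in HFD replicates 1 to 4, a change of 1.42 ± 0.33 (SE, n = 4 per group), adjusted p = 0.0083 and of 1.13 under loess. Vwf was the endothelial marker that rose of 15, by 0.92 ± 0.19 (SE, n = 4 per group), adjusted p = 0.005, and Acta2 that of stellate cells of 13, by 0.49 ± 0.14 (SE, n = 4 per group), adjusted p = 0.019. Sox9, a bile duct transcription factor, changed by -0.81 ± 0.21 (SE, n = 4 per group), adjusted p = 0.012 while Krt23 and Cldn7 of the same list of 10 rose. Of 11 pancreas genes 2 rose, and of 8 skeletal muscle genes 2 rose, beside 18% of all genes, the summed muscle level going from -1.40 to -1.29 in LFD to -1.10 to -0.66 in HFD. Under loess 0 rose and 1 fell in each of these lists. Erythroid markers gave 0 calls of 9 by limma, 0 at an unadjusted p below 0.05 and 0 by the methods' t-test.

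The remaining lists held few calls. Bile acid synthesis and transport had 2 falls of 22, Abcb11, the bile salt export pump, by 0.75 and Fgfr4 by 0.39, and 0 of these passed under loess. One-carbon metabolism had 1 rise and 2 falls of 27, the rise being Mthfd1l, a mitochondrial folate enzyme, by 1.24 ± 0.27 (SE, n = 4 per group), adjusted p = 0.0064. Of 17 p53 targets Mdm2 fell by 0.56 and Eda2r, well above background in 2 of 4 LFD livers, rose by 1.19, and of 20 chemokines Cxcl13, which attracts B cells, fell by 1.97 and Ccl8 rose by 0.49. Antigen presentation had 3 rises of 12, beside 18% of all genes: Cd209a by 0.95, H2-Oa by 0.84 and H2-DMa by 0.69. Neutrophil markers had 1 rise and 1 fall of 12, beside 18% and 10.4% of all genes. The summed neutrophil level, which follows the brightest members, was 6.95 to 7.10 in LFD and 6.75 to 6.93 in HFD, without overlap. The members did not share this direction: their median change was 0.32, and 0.20 under loess. In HFD 4 lay higher without overlap and 1 lower, beside 24% and 16.1% of all genes. Of the 12 members 3 were below background in every LFD liver and 1 in every HFD liver. Eda2r, Ccl8 and Cd209a did not pass under loess.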

How the data were processed

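Liver RNA of 18 mice was labelled with Cy3 and measured on 1-colour Agilent 4×44K arrays on 6 slides scanned on 1 day, of which the 8 arrays of untreated mice are compared here. The deposited intensity values are Agilent Feature Extraction 10.7.3.1 output, in which the authors had background subtracted and trends within each array removed; arrays were not scaled to each other. Outlier spots were left out, spots of a probe averaged, and the log2 of the processed signal reduced by its 75th percentile. The deposited value table of the series holds the background-subtracted signals rounded, and served as an alternative.

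The 35735 probes well above background on at least 4 of 18 arrays were kept, and 344 of them lack a value on some array. RefSeq symbols (GRCm38.p6) named 71.1% of 39429 probes, the array layout uses an earlier build, and a gene is read on its brightest kept probe. limma 3.58.1 (R 4.3.3) fitted 4 group means over the 18 arrays, with 2.77 prior degrees of freedom, and p-values were adjusted by Benjamini-Hochberg over all kept probes, with 0.05 as threshold. Exact permutation tests of 4 against 4 cannot give a two-sided p below 0.029. The number of arrays limits the precision. The 39 gene lists (769 genes, 748 tested) and the genes named were chosen with earlier results of these data known. Named were 15 genes with the largest rises and the 12 largest falls of genes that passed, did not overlap and were above background on all arrays of at least 1 group, up to 5 members of each list by size of change among those that passed, or 2 where none did, and the 3 brightest of each marker list. Olfr genes, Fitm1, Pparg, Abhd5, Irs2, Pfkl, Clock, Rora, Bhlhe41, Per1, Per2 and Adipoq, which fall outside this rule, were chosen after their values were seen. On simulated data for this comparison (35391 probes, 200 of them changed), 74% of 2-fold and 95% of 4-fold changes were recovered, with 7 false calls. The simulated noise was independent between arrays, without slide or signal-dependent differences. These figures therefore do not measure false calls in the real comparison. The methods' t-test is Student's test. Normexp, planned on the mean spot signal, was run on the median signal. With and without the spots far below their local background, 50 intensity units were then added to every spot. The part of this offset in the normexp results was not tested. Alternatives are given in the closing section. Promoter windows were looked up for 43 genes, of which 36 matched.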

Additional observations from a re-analysis of the deposited data

Results flagged for a closer look

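In 12 of 362 groups of 4 livers tested, 1 liver lay far from the other 3, which is judged by the gap to its nearest neighbour divided by the whole range of the group, past Dixon's 95% critical value. Chance alone gives about 1 in 20. In LFD, replicate 4 was the lowest for Cyp2b10 (ratio 0.888), Dio1 (0.844), Lox (0.879) and Lgals3 (0.952). LFD replicate 3 was the highest for Acly (0.841) and the lowest for Col18a1 (0.844) and Cela3b (0.84). LFD replicate 1 was the highest for Mylpf (0.887) and the lowest for Cxcl10 (0.961), at -6.27 against -0.38 to -0.14 in the other 3. The change of Cxcl10, 1.49 (adjusted p = 0.32), was close to 0 without that liver. In HFD, replicate 1 was the highest for Avpr1a (0.913) and Cxcl13 (0.834), nearest to LFD in both, and replicate 4 was the lowest for the summed markers of lipid-associated macrophages (0.852).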

How the results depend on the processing

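All values here count genes, or members of the 39 lists, past the adjusted p, unless said otherwise, against 5555 genes, 560 genes with 2-fold and 146 list members. Slide as a random block left 380, 102 and 9. HFD replicates 1 and 2 alone against LFD left 7, 3 and 0, and HFD replicates 3 and 4 alone gave 1018 genes with 2-fold. Quantile normalization gave 352 with 2-fold and 96 members, and cyclic loess (chosen after seeing the data) 96 members. Only probes above background on all 18 arrays gave 341 with 2-fold. The fit of the 8 untreated arrays gave 275 members and the methods' t-test 224 after Benjamini-Hochberg, with 6998 genes. At the methods' p with 2-fold the t-test gave 512 genes. Leaving out 1 array at a time gave 2244 to 6281 genes, 294 to 781 with 2-fold and 58 to 179 members, the lowest without HFD replicate 3. Without HFD replicate 4 there were 337 with 2-fold and 65 members, and without LFD replicate 2 or LFD replicate 4 there were 88 members each. Leaving out LFD replicate 1 and HFD replicate 1 together, the arrays farthest from their group on the first 2 principal components, gave 5350 genes (chosen after seeing the data).

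Normexp as planned left 2, 2 and 0, raised the median change of all genes to 0.37, and turned Pnpla5 to 0.24, Gldn to 0.56 and Mmp14 to 0.035. On 9 of 18 arrays at least 1 spot lay over 100 intensity units below its local background, and HFD replicate 4 held 6 such spots. They moved its fitted background mean to -1788, against 5.12 without them. Without such spots, chosen after seeing the data, normexp gave 3552 genes (1764 higher and 1788 lower), 168 with 2-fold (102 and 66) and 117 members. Read on any probe, Cd4 turned to 0.42. Same-numbered arrays of the 2 diets correlated in their deviations at -0.04, 0.03, 0.10 and 0.15, so they share only a number; the replicate block gave 5319 genes, 548 with 2-fold and 151 members. Of the 168 named genes 124 did not overlap, 108 under quantile normalization. Over all genes 24% lay higher and 16.1% lower without overlap. The naming rule asked for no overlap in the largest rises and falls, so that the 124 follow largely from the choice. Among the other checks of named genes 5616 kept their call or lack of a call, and 1050 lost and 37 gained the call. In 4 the sign changed with a call in either fit. A change of sign without a call in either fit was counted as kept. Signal over background limits the dimmest genes.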
